A study of Mus musculus with 6 samples.

Results

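The 47 genes described here encode proteins of mitosis: the mitotic cyclins and their kinase, the kinetochore and its checkpoint, the spindle motors, and the machinery that ends anaphase and splits the cell. They were taken as a list of names that was chosen with earlier results of these data known. All 47 were found among the 32285 features of the count matrices. The libraries were made from CD11b+ cells, selected with microbeads from bone marrow of C57Bl/6 mice aged 2 months. The femur group held 3 libraries, 1 from female and 2 from male mice, and the mandible group held 3 libraries, all from male mice. The labels give the femur marrow as coming from femurs and tibiae, whereas the study's methods name the femurs alone, and neither says how many mice went into a library, so p-values measure the spread between these libraries. The expression of the 47 genes was followed across the 9 clusters and the reference cell type labels that were deposited with the cells, and between femur and mandible.

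A dividing cell switches these genes on in a fixed order. Cyclin A and cyclin B bind the kinase Cdk1 and drive the cell into mitosis, kinetochores then build on the centromeres to hold the spindle, and a checkpoint holds back anaphase until each chromosome is attached. The anaphase-promoting complex, an ubiquitin ligase, ends mitosis by marking securin and the cyclins for destruction. In bone marrow, dividing cells are found among progenitors such as promyelocytes and myelocytes, and among monocyte precursors, whereas mature neutrophils have left the cell cycle. Many of these genes share promoter elements: a CCAAT box, bound by the factor NF-Y, and the cell cycle genes homology region, whose letters TTTGAA are bound by the DREAM complex and by the B-Myb and FoxM1 complex.

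After the filters of the authors, 69776 cells of 74091 barcodes remained, with 7763 to 22797 cells and 82962160 to 244946998 unique molecular identifiers (UMIs) per library. Median UMIs per cell ranged from 6924 to 9158. Among the kept cells, 500 barcode sequences occurred in more than 1 library, in 1000 cells in all. Femur replicate 1 was the only female library, so sex and the particulars of that library cannot be told apart. In the library names, femur replicate 2 carried the same number, 6, as mandible replicate 1. Femur replicate 3 and mandible replicate 2 likewise both carried a 7, and no label explains the numbers. Levels are given as CPM, the UMIs of a gene scaled to a total of 1000000 UMIs of the same cells and library, which compares a gene between cells but is not corrected for transcript length between genes.

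The promoters of 4 genes that carry both elements are shown, because they are among the 10 most abundant of the 47 genes in the dividing cluster and return in the results. Of the 47 genes, 40 matched a RefSeq promoter. In the 250 bases before the start, TTTGAA or its reverse complement was found in 13 of the 40 (32.5%), against 16.3% of 27025 genes, and CCAAT or its reverse complement in 30 (75%), against 34.5%. Both were found in 11 (27.5%), against 5.73%. A match describes letters and is not a bound site. The 150 bases before each start are given on the strand of the gene (RefSeq, GRCm38.p6), with both motifs in capitals on either strand.
Top2a promoter, chr11:99024190-99024339, minus strand: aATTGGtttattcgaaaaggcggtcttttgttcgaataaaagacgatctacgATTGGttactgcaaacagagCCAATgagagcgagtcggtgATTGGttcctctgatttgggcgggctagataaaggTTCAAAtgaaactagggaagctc
Mki67 promoter, chr7:135716380-135716529, minus strand: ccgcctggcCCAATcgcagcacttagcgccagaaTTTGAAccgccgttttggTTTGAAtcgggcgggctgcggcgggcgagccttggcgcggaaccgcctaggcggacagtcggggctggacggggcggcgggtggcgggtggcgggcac
Ube2c promoter, chr2:164769779-164769928, plus strand: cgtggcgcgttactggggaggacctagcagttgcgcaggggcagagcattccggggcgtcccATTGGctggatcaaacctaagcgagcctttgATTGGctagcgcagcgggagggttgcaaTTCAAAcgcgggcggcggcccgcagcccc
Kif11 promoter, chr19:37376232-37376381, plus strand: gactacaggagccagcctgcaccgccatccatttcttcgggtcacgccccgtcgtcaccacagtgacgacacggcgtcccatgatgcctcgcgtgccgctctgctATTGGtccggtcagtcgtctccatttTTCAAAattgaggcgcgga
Top2a encodes topoisomerase II alpha, which untangles sister chromatids, and Mki67 the Ki-67 protein that coats mitotic chromosomes. Ube2c is the ubiquitin-conjugating enzyme that works with the anaphase-promoting complex, and Kif11 the motor that pushes the spindle poles apart. In the dividing cells of cluster 4, Top2a reached 865 CPM (mean of 6 libraries), Mki67 565, Ube2c 403 and Kif11 214.

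The 47 genes were concentrated in cluster 4. This cluster held 10.9% of the cells and 72.8% of the UMIs of the 47 genes, with 61.0% to 78.7% over the 6 libraries. It carried neutrophil precursor genes such as Elane and Fcnb, whose list of 6 summed to 3103 to 4988 CPM, and 98.8% of its cells were called S or G2M by the deposited phase calls. Summed over the 47 genes, the level was 8391, 6955 and 6837 CPM in cluster 4 of the femur libraries and 7005, 6364 and 6332 in those of the mandible. Cluster 0, with immature neutrophil genes such as Camp and Ltf, stood at 366 to 790.4 CPM, so cluster 4 was 8.44 to 19.2 times higher within a library. Clusters 1, 2 and 3, the more mature neutrophil-like clusters, ranged from 183 to 467 CPM. Cluster 5, the monocyte cluster, ranged from 1235 to 3403 CPM, cluster 6 from 3210 to 5659 and cluster 8 from 2797 to 9057. Clusters 6 and 8 were small in some libraries, with as few as 39 and 11 cells. Since clusters and phase calls were made from expression in the same cells, these differences are a description and were not tested.

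**Figure D1:**
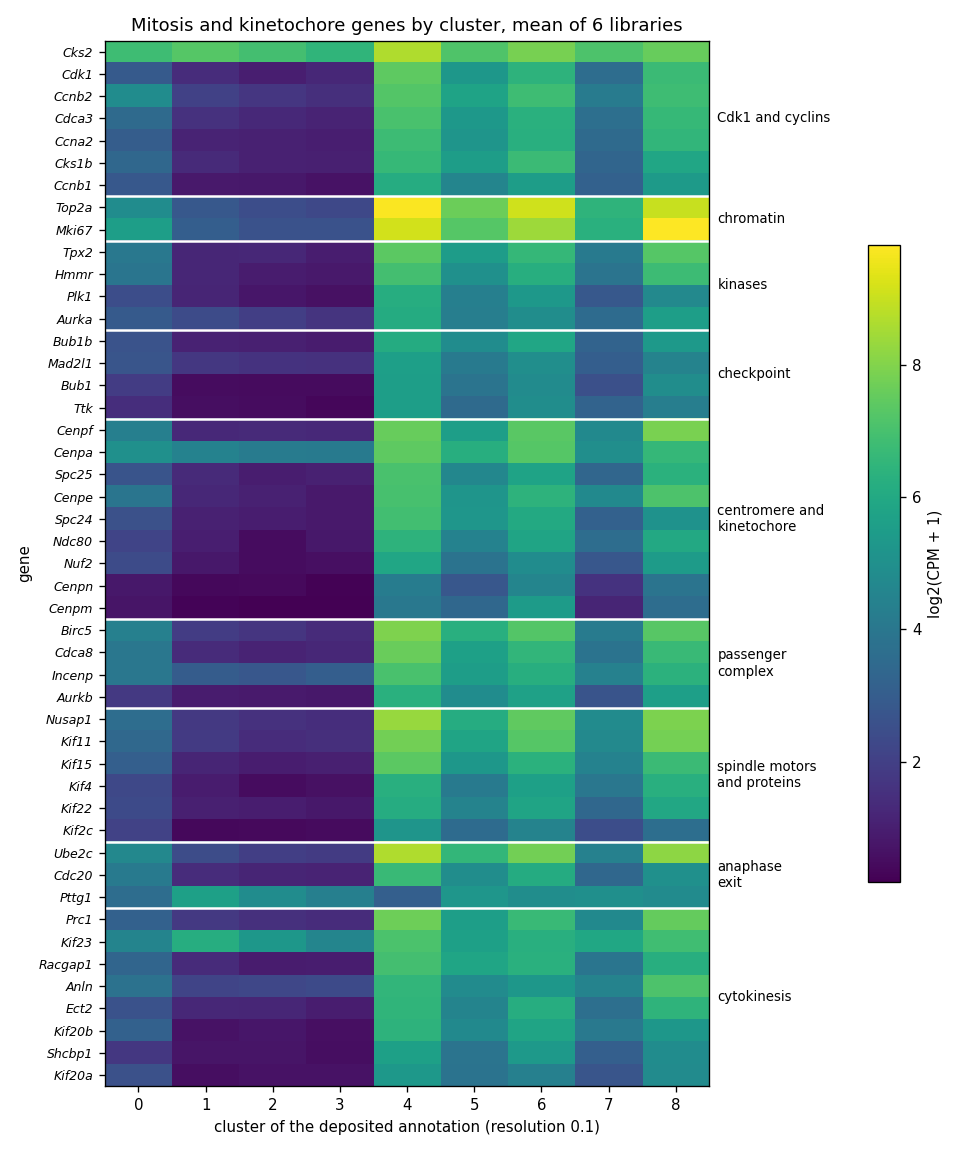
Mean level of each of the 47 genes over 6 libraries, as log2(CPM + 1), by cluster (columns) and gene (rows, grouped by role and ordered within a role by level in cluster 4). Column 4 is the brightest for most rows, while Pttg1 is darkest there and Cks2, Kif23, Cenpa and Pttg1 keep a level in clusters 1 to 3.

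Of the 47 genes, 37 had their highest mean level in cluster 4, 6 in cluster 8 (Mki67, Kif11, Kif4, Cenpe, Cenpf and Anln), 3 in cluster 6 (Cenpm, Cenpn and Cks1b) and 1 in cluster 1 (Pttg1). The level in cluster 4 can be followed by role, with the most abundant gene of each. Among the 7 genes of Cdk1 and its cyclins, Cks2, a small subunit that docks on the kinase, was at 431, 416 and 390.2 CPM in the femur libraries and 450.5, 394 and 359 in the mandible libraries. The values of both sites overlapped. Of the 2 chromatin genes, Top2a was at 1223, 845 and 899 CPM in the femur and 820.4, 791 and 613 in the mandible, and each femur library lay above each mandible library. Of the 4 genes around the mitotic kinases, Tpx2, which activates Aurora A on the spindle, was at 195, 169.7 and 173 CPM in the femur and 159, 147 and 152 in the mandible, again without overlap.

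The checkpoint was the least abundant role. Its leading gene of 4, Bub1b, which encodes the BubR1 protein that blocks the anaphase-promoting complex, was at 83.95, 69.0 and 67.0 CPM in the femur and 71.6, 56.2 and 61.1 in the mandible. Of 9 centromere and kinetochore genes, Cenpf was the leader, with 228, 181 and 192 CPM in the femur and 185, 159 and 186 in the mandible. In the chromosomal passenger complex of 4, which corrects wrong attachments and carries Aurora B, Birc5 (survivin) was even across the libraries, with 247, 249 and 247 CPM in the femur and 264, 249 and 234 in the mandible. Each of these 3 genes overlapped between the sites.

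Of 6 spindle motors and spindle proteins, Nusap1, which bundles microtubules near chromosomes, was at 388, 306 and 351 CPM in the femur and 314, 309.6 and 259 in the mandible, with overlap. Of 3 genes of anaphase exit, Ube2c was at 363, 367 and 377 CPM in the femur and 429.7, 444 and 438 in the mandible. It was the only leader with each mandible library above each femur library. Of 8 cytokinesis genes, Prc1, which bundles the microtubules of the central spindle, was at 264, 207 and 212 CPM in the femur and 197, 170.4 and 169 in the mandible, with each femur library the higher.

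The other genes of each role covered a wide range in cluster 4, given as means over 6 libraries. Cdk1 itself was at 173 CPM, the B cyclins Ccnb2 and Ccnb1 at 149 and 69.7, Cdca3, a mitotic entry factor, at 132, Ccna2 at 109.8 and Cks1b at 98.6. Hmmr was at 122 CPM, and the mitotic kinases Plk1 and Aurka at 72.6 and 69.0. The checkpoint genes Mad2l1, Bub1 and Ttk lay close together at 46.7 to 48.1 CPM.

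In the passenger complex, Cdca8 (borealin) was at 196 CPM, Incenp at 131 and the kinase Aurkb at 77.1. The 4 subunits of the Ndc80 complex were at 130.1 (Spc25), 117 (Spc24), 83.5 (Ndc80) and 58.0 CPM (Nuf2), the motor Cenpe was at 129, and the inner kinetochore genes Cenpn and Cenpm were lowest at 17.8 and 15.4. Of the motors, Kif15 was at 165 CPM, Kif4 at 75.0, Kif22 at 69.8 and Kif2c, which takes microtubules apart, at 36.2. Cdc20 was at 103 CPM. In cytokinesis, Racgap1, the partner of Kif23, was at 122 CPM, Ect2, which activates the small GTPase RhoA at the cleavage furrow, at 87.7, Anln at 91.6, Kif20b at 84.1, Shcbp1 at 49.9 and Kif20a at 38.9.

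A few of these genes were also present in mature neutrophil-like cells. In cluster 1, where 2.54% of the cells were called S or G2M, 43 of the 47 genes were under 7.5 CPM, with a median of 1.45 CPM, and the median gene was 82.8 times higher in cluster 4. The other 4 were Cks2, Kif23, Pttg1 and Cenpa, singled out here after their values were seen. Pttg1 encodes securin, the inhibitor of separase, and ran against the rest: it was at 6.2, 6.6 and 8.5 CPM in cluster 4 of the femur and 7.2, 9.3 and 7.6 in that of the mandible, but at 39.0, 53.5 and 85.2 CPM in cluster 1 of the femur and 39.9, 40.7 and 38.0 in that of the mandible. Its mean in cluster 1 was 6.53 times that in cluster 4, and its level in monocyte-rich cluster 5 was 4.83 times that in cluster 4. Only 8.47% of its UMIs lay in cluster 4. Cks2 kept 153 CPM in cluster 1, or 0.375 of its level in cluster 4, and Kif23, a motor of the central spindle, kept 71.0 CPM, or 0.525. Cenpa, the histone variant that marks centromeres, kept 21.2 CPM, or 0.122. In the annotation, Pttg1 and Kif23 overlap no other gene, and Cks2 overlaps a small nucleolar RNA that is not among the features, so no other gene of the matrices overlaps them.

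Within cluster 4, levels were higher in cells called G2M than in cells called S, as a description with no test. The phase calls rest on an S list and on a G2M list of 54 genes. The G2M list holds 29 of the 47, so for these 29 the difference is partly built in. The other 18 genes are outside that list, but they share the cells and the cell cycle with it. Of the 29, all had more CPM in G2M-called than in S-called cells in each of the 6 libraries, and so had 16 of the 18 others. The exceptions were Pttg1, at 7.46 ± 0.90 CPM in S-called cells and 7.72 ± 1.66 in G2M-called cells (SD, n = 6), and Cenpm, a kinetochore gene, at 15.8 ± 3.4 and 15.4 ± 2.2 CPM. The largest differences were those of Cenpf (5.90-fold), Ube2c (5.81-fold), Ccnb1 (4.62-fold), Cdc20 (4.09-fold) and Hmmr (4.07-fold). Ccnb1 encodes cyclin B1 and was first among the genes outside the list, with 21.9 ± 4.7 CPM in S-called and 101 ± 10 in G2M-called cells. Cdc20 activates the anaphase-promoting complex. The difference was smaller for Cenpn (1.45-fold), Mad2l1 (1.56-fold), Spc24 (1.69-fold) and Kif15 (1.73-fold).

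**Figure D2:**
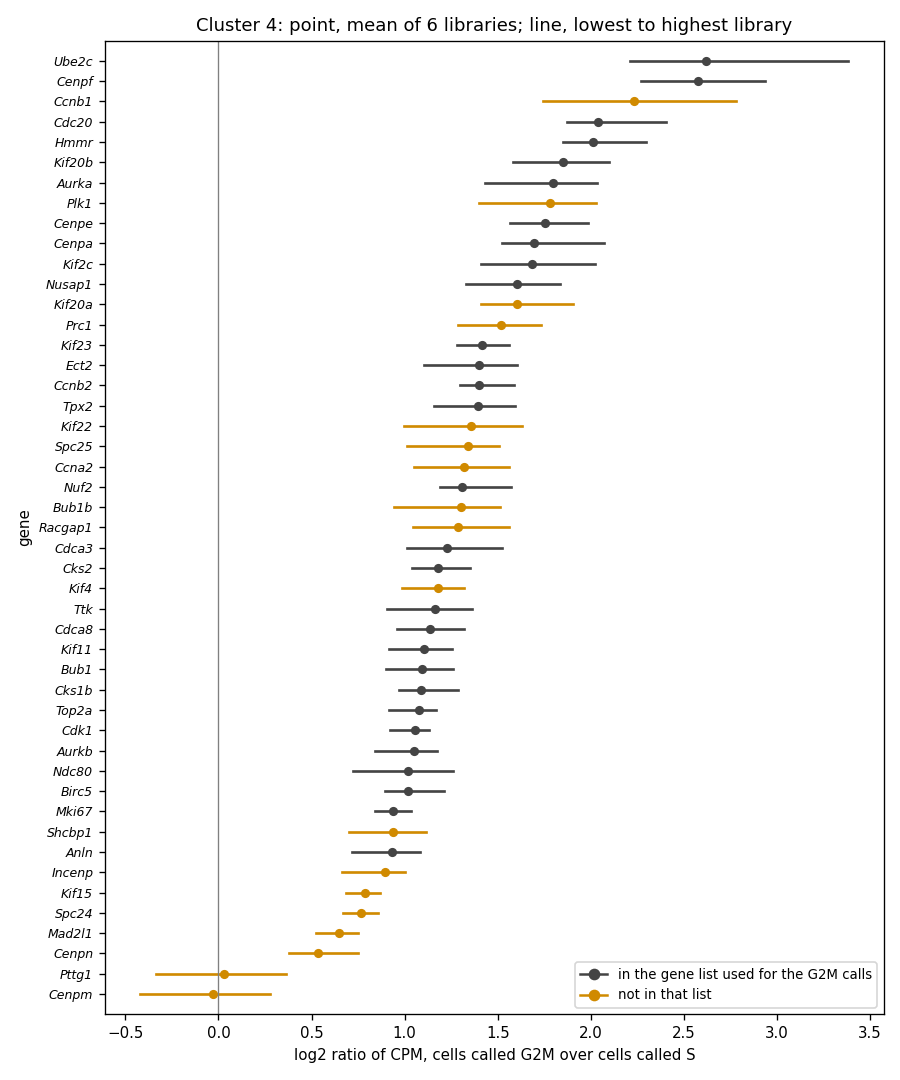
Log2 ratio of CPM in G2M-called over S-called cells of cluster 4 for each gene (point, mean of 6 libraries; line, lowest to highest library), with genes in and outside the G2M list in different colours. Ube2c and Cenpf lie farthest to the right, and the lines of Pttg1 and Cenpm cross 0.

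G2M-called cells of different lineages carried these transcripts at the following levels. The summed level was 8515 to 10523 CPM in G2M-called cells of cluster 4, 8333 to 10850.2 in those of cluster 5 and 10030 to 11878 in those of cluster 5 labelled as monocytes. In cluster 0 it was 5252 to 6529 CPM, or 0.575 to 0.756 of the level in cluster 4 of the same library. Per cell, the median was 205 UMIs of the 47 genes in G2M-called cells of cluster 4 and 2 UMIs in G1-called cells of cluster 0. Cells of cluster 4 that were labelled as pro-B cells, 214 in all, had 4160 to 5107 CPM, or 0.555 to 0.717 of the level in the neutrophil-labelled cells of the cluster. Their B lineage list of 7 genes stood at 16.1 to 201 CPM and their neutrophil precursor list at 21277 to 33317 CPM, so the data do not bear out that label, and they are named here by it alone.

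Between femur and mandible, the largest number of low unadjusted p-values lay in cluster 5, the cluster with monocyte genes such as Csf1r, Ccr2 and Ly6c2. Summed over the 47 genes, the level there was 1235, 1369 and 1882 CPM in the femur libraries and 1643, 3403 and 2502 in the mandible libraries. The mandible mean was 1.68 times the femur mean, and the sites overlapped in mandible replicate 1. Cluster 5 gave 4.80%, 11.2% and 6.25% of the UMIs of the 47 genes in the femur libraries and 12.7%, 21.8% and 20.7% in the mandible libraries, without overlap. Each gene was then tested with edgeR's quasi-likelihood test on counts summed per library, with p-values adjusted over all 13765 genes that passed the filter on low counts, as all 47 did. None of the 47 passed at an adjusted p under 0.05, where 0% of all genes did. By DESeq2 the count was also 0 (0.245% of all genes were called higher). At an unadjusted p under 0.05, 24 of the 47 were higher in the mandible (3.25% of all genes were) and 0 were lower (3.86%). Genes of a shared process can vary together between libraries, so here and below such counts are not counts of separate results. For 15 genes each mandible library lay above each femur library (7.32% of all genes). The log2 fold change was positive for 46, with a median of 0.74 against -0.01 over all genes, and the lowest adjusted p was 0.606. These values leaned on single libraries: the number of genes with an unadjusted p under 0.05 was 3 without mandible replicate 2 (3.71% of all genes in that fit), 7 with either femur replicate 1 or 2 left out (5.84% and 5.51%), and 13 with mandible replicate 3 left out (4.28%). It was 40 when mandible replicate 1 was dropped (13.8%) and 44 when femur replicate 3 was (9.10%). The median ran from 0.44 without mandible replicate 2 to 1.04 without femur replicate 3, with 46 genes positive in each. In S-called or G2M-called cells of the cluster alone the median was 0.15, and 3 genes had an unadjusted p under 0.05 (9.65% of all genes did). Within the library pairs numbered 6 and 7 the summed level was 1.20 and 1.81 times the femur level, with 43 and 46 genes higher.

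The 3 highest estimates in cluster 5 among genes of at least 10 CPM were those of Ccna2, Kif20a and Spc24. Ccna2 (cyclin A2) was at 16.7, 26.0 and 25.8 CPM in the femur and 35.0, 65.1 and 49.5 in the mandible (log2 fold change 1.06 ± 0.29, SE; adjusted p 0.606). Kif20a, a motor of cytokinesis, was at 6.44, 8.49 and 10.6 CPM against 12.6, 24.3 and 18.0 (1.03 ± 0.32). Neither gene overlapped between the sites. Spc24, a subunit of the Ndc80 complex that grips microtubules, was at 19.2, 22.5 and 30.1 CPM in the femur and 28.1, 71.5 and 50.9 in the mandible, and mandible replicate 1 lay within the femur range. The single gene with a negative estimate was Pttg1, at 35.9, 44.7 and 36.5 CPM in the femur and 40.8, 31.9 and 29.6 in the mandible (-0.24 ± 0.17, adjusted p 0.780).

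Cluster 5 held 7354 cells, of which 3734 carried the monocyte label, 2529 the neutrophil label and 482 the macrophage label. The estimates were highest in the monocyte-labelled cells, whose list of 6 monocyte genes summed to 3716 to 4656 CPM. There the summed level of the 47 genes was 1291, 1176 and 2055 CPM in the femur libraries and 2267, 4685 and 3553 in the mandible libraries, without overlap, and the mandible mean was 2.32 times the femur mean. With the edgeR test over 11364 genes, again 0 of the 47 passed at an adjusted p under 0.05 (0.0968% of all genes did), and the lowest adjusted p was 0.0832. At an unadjusted p under 0.05, 46 of the 47 were higher in the mandible (6.94% of all genes were) and 0 were lower (6.27%). Where genes vary together between libraries, these are not 46 separate results. For 37 genes, each mandible library lay above each femur library (10.6% of all genes). The median log2 fold change was 1.30 against 0.00 over all genes, and the exception was again Pttg1, at 44.7, 52.8 and 41.7 CPM in the femur and 49.5, 39.0 and 45.1 in the mandible (-0.09 ± 0.14). On simulated counts for these libraries and 11364 genes, the test recovered 53 of 100 genes changed 2-fold and 90 of 100 genes changed 4-fold. The simulation drew each gene on its own, so these rates need not hold for genes that vary together between libraries.

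The number of calls in the monocyte-labelled cells depended on the fit. DESeq2 called 37 of the 47 (1.40% of all genes called higher), edgeR without the filter on low counts called 46 (1.66%) and edgeR with the replicate number as a block called 10 (0.273%). With the 4 libraries that share the numbers 6 and 7, and that number as a block, edgeR called 46 (3.67%). With a block and a site term, these 4 libraries leave very few degrees of freedom to estimate the spread. In cluster 1 the same fit called 14.1% of all genes in either direction, against 0.0842% in the main fit. Within the pair that shares the number 6 the summed level was 1.93 times higher in the mandible, and 46 of the 47 genes were higher. Within the pair with the number 7 it was 2.28 times higher, and 46 genes were higher. Without mandible replicate 1, 44 genes were called (2.89%). Without any of the other 5 libraries 0 were, in fits that called 0% to 0.0257% of all genes higher. Without femur replicate 1, the female library, 43 genes were higher at an unadjusted p under 0.05 (4.48% of all genes), with a median log2 fold change of 1.20. Each call named here was higher in the mandible. The labels were tested with these alternatives only after the data had been seen.

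**Figure D3:**
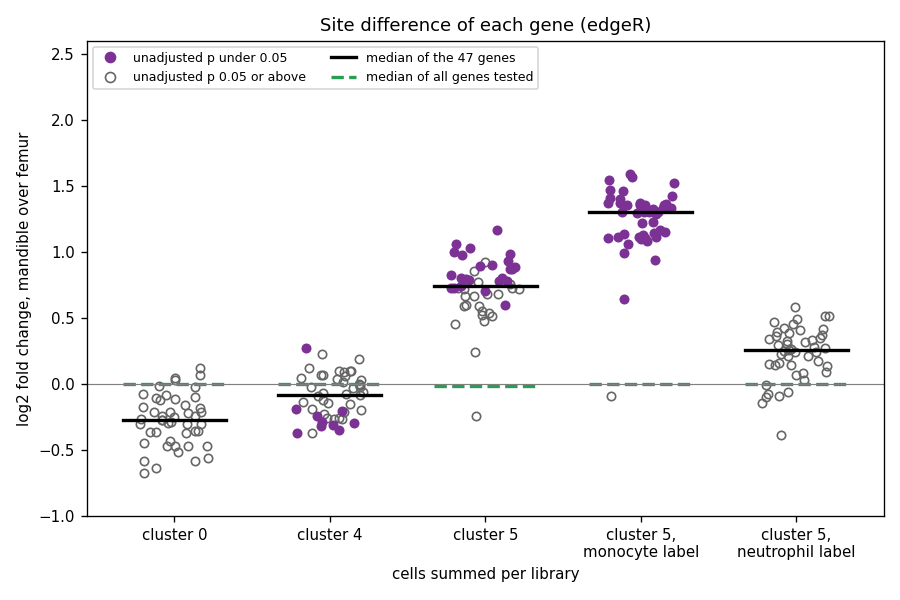
Log2 fold change of mandible over femur (edgeR) for each of the 47 genes, in 5 groups of cells, filled where the unadjusted p was under 0.05. Black bars give the median of the 47 genes and dashed bars that of all genes tested: the 47 sit above the other genes in cluster 5, most in its monocyte-labelled cells, and below them in cluster 0.

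In the monocyte-labelled cells each role had higher estimates in the mandible, though no gene passed at an adjusted p under 0.05. Ccna2 was at 20.5, 18.9 and 33.3 CPM in the femur and 48.7, 97.2 and 76.6 in the mandible (log2 fold change 1.59 ± 0.29, SE; adjusted p 0.0959). Cks2, which is also present in cluster 1, had the smallest positive change, with 90.6, 96.7 and 143 CPM against 149, 222 and 157 (0.65 ± 0.22). Both genes were without overlap. Top2a was at 138, 97.2 and 196 CPM in the femur and 222, 509 and 294 in the mandible (1.23 ± 0.33). Mandible replicate 1 was the lowest of its group for each of these 3 genes, and femur replicate 3 the highest of its own.

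Tpx2 was at 30.5, 20.9 and 45.8 CPM in the femur and 44.0, 118 and 90.7 in the mandible, so mandible replicate 1 fell just within the femur range. Bub1b of the checkpoint was at 21.7, 17.5 and 27.2 CPM against 37.0, 71.2 and 56.6 (1.29 ± 0.26, adjusted p 0.0983), without overlap. Cenpf of the kinetochore was at 23.6, 22.6 and 57.4 CPM against 50.2, 100.4 and 96.3, and Birc5 of the passenger complex at 35.6, 43.1 and 90.5 against 87.7, 203 and 137. In both, femur replicate 3 lay above mandible replicate 1.

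The lowest adjusted p, 0.0832, was that of Kif11 and of Anln. Kif11 was at 37.4, 30.5 and 39.5 CPM in the femur and 62.4, 135 and 104 in the mandible (1.47 ± 0.26), and Anln, which encodes the anillin scaffold of the contractile ring, at 16.9, 14.4 and 22.9 against 34.4, 60.6 and 53.2 (1.43 ± 0.25). Nusap1 was at 41.3, 34.8 and 74.6 CPM against 80.7, 182 and 115, and Prc1 at 29.3, 23.6 and 47.6 against 56.5, 107.5 and 86.5 (1.29 ± 0.30). Ube2c was at 38.4, 43.2 and 100.3 CPM in the femur and 109, 247 and 181 in the mandible (1.53 ± 0.40). These 5 genes did not overlap between the sites.

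The remaining genes lay in a narrow band. Ccnb2 had the lowest log2 fold change of the other genes, 0.94, followed by Racgap1 at 0.99, and Ccnb1 (1.57) and Kif20a (1.54) came next to Ccna2 at the upper end. The kinases Plk1 (1.36), Aurka (1.34) and Aurkb (1.31) were close to each other and to Cdk1 (1.34). So were the Ndc80 complex genes Spc24 (1.46), Nuf2 (1.41), Spc25 (1.15) and Ndc80 (1.11), and the checkpoint genes Mad2l1 (1.13), Bub1 (1.10) and Ttk (1.06), though none of these differences between genes was tested. Apart from Pttg1, the genes whose sites overlapped were Ccnb2, Cdca3, Tpx2, Cenpa, Cenpe, Cenpf, Cenpm, Birc5 and Cdca8.

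**Figure D4:**
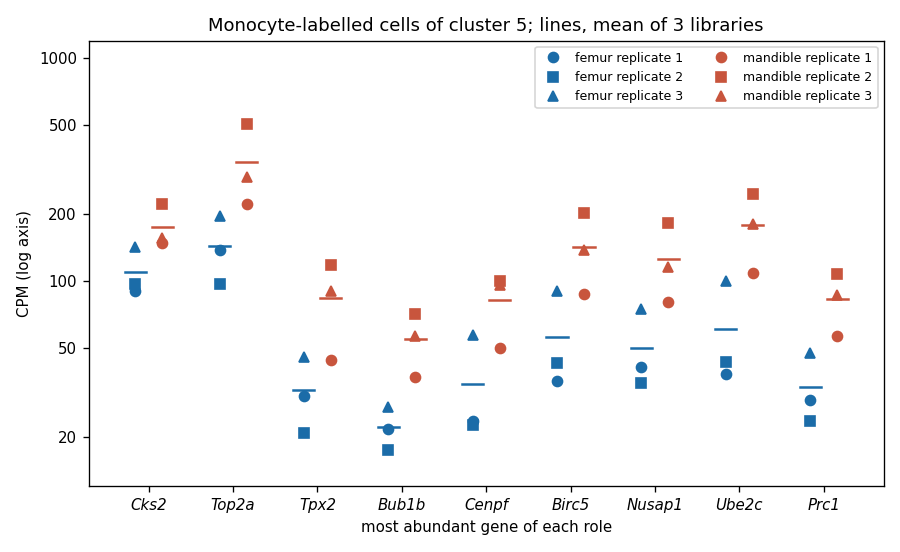
CPM (log axis) of the most abundant gene of each role in the monocyte-labelled cells of cluster 5, by library (marker shape, replicate; colour, site) with the mean of 3 libraries as a line. The mandible means are above the femur means for each gene, and of the libraries of different sites, femur replicate 3 and mandible replicate 1 lie closest together.

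The share of cells called G2M differed in the same direction. Of the monocyte-labelled cells, 5.12%, 4.66% and 11.1% were called G2M in the femur libraries and 9.02%, 26.9% and 16.9% in the mandible libraries. The means were 6.95% ± 3.58 and 17.6% ± 9.0 (SD, n = 3 each), and a two-sided exact permutation test gave p = 0.2, where 3 libraries against 3 cannot go below 0.1. Within a phase the levels were close. The G2M-called cells numbered 25, 36 and 68 in the femur libraries and 55, 179 and 99 in the mandible libraries. In G1-called cells the summed level was 266, 294 and 342 CPM in the femur and 279, 426 and 315 in the mandible, and in G2M-called cells 11162, 10401 and 10029.9 against 11878, 10788 and 11686. In G2M-called cells alone, the median log2 fold change was 0.11, 4 of the 47 genes were higher at an unadjusted p under 0.05 (2.19% of 8075 genes were) and 0 were called by edgeR (0% of all genes were called higher). In G1-called cells alone, 27 of the 47 passed the filter, their median was 0.19, 2 were higher at an unadjusted p under 0.05 (2.71% of 10659 genes were) and 0 were called (0.169% of all genes). The phase calls use the same transcripts, so more cells in G2M and more RNA of these genes per cell can be told apart only as far as the calls allow. DESeq2 was not run on single phases.

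**Figure D5:**
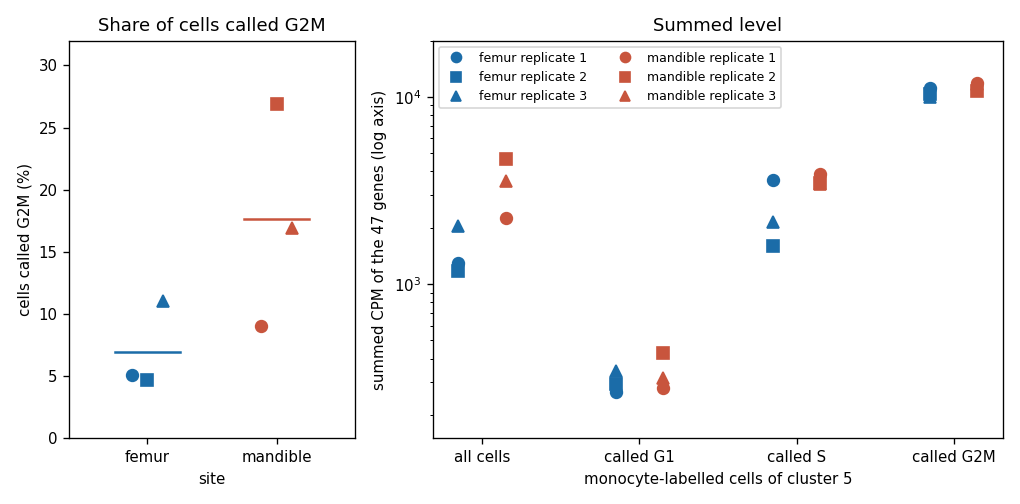
Left, share of monocyte-labelled cells called G2M in each library (%), with the mean of 3 libraries as a line. Right, summed CPM of the 47 genes (log axis) in all monocyte-labelled cells and in those called G1, S and G2M: the sites are apart in all cells (1176 to 2055 against 2267 to 4685) and overlap within G1, S and G2M. The S values rest on few cells, 9, 14 and 16 in the femur libraries and 8, 44 and 24 in the mandible libraries.

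A further measure needs no phase call, but it counts the same 47 genes and so is not independent of the calls. After each cell was thinned to 1000 UMIs, the share of monocyte-labelled cells with at least 2 UMIs of the 47 genes was 10.3%, 8.42% and 16.2% in the femur and 13.1%, 33.9% and 22.7% in the mandible, with 3 cells left out as too shallow. The sites overlapped, with femur replicate 3 above mandible replicate 1. The same share was 4.75% to 10.6% in cluster 1, where few cells were called S or G2M and Cks2, Kif23 and Pttg1 give UMIs. The median depth was 9328.5 UMIs in the monocyte-labelled cells and 4591 in cluster 1. Femur replicates 1 and 2 were within the range of cluster 1, and the other 4 libraries above it. Without thinning the share was 61.1% to 69.5% in the femur and 65.4% to 71.7% in the mandible, and 35.0% to 58.4% in cluster 1. No doublet caller was run.

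The sums of the marker lists given here did not separate the sites among the monocyte-labelled cells. The neutrophil precursor list summed to 142 to 280.1 CPM in the femur and 110.3 to 479.6 in the mandible, with Elane and Fcnb in it, and the immature neutrophil list of 5 to 1657 to 6990.3 against 2176 to 3478. The B lineage list of 7 stood at 13.0 to 23.3 against 15.6 to 44.97 CPM, the erythroid list of 8 at 10.7 to 115 against 44.3 to 95.1, and the stem and progenitor list of 6 at 21.5 to 41.3 against 22.4 to 33.6. No gene of these lists was at 0. Mandible replicates 2 and 3 were the highest in the neutrophil precursor and B lineage lists as in the 47 genes, and the part of these lists in the result was not tested.

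The other genes of the pathway were read from lists that do not overlap the 47. These lists too were chosen with earlier results of these data known. Their genes come from the same libraries and can vary together with the 47, so they are not separate support. In the monocyte-labelled cells, 25 of 35 further kinetochore and checkpoint genes were higher in the mandible at an unadjusted p under 0.05, as were 30 of 34 further spindle and cytokinesis genes, with 0 lower in each, where 6.94% of all genes were higher and 6.27% lower. Among 30 genes of the anaphase-promoting complex, cohesin and condensin, 15 were higher and 0 lower. Among 21 genes of cell cycle transcription, E2F and Rb family genes included, the counts were 9 and 0. A last list held cyclins, kinases and inhibitors, mostly of the G1 and S phases. Of its 20 tested genes, 10 were higher and 2 lower. Named after their values were seen, the 10 were Ccne1, Ccne2, Cdk2, Cdk4, Cdkn1a, Cdkn2c, Cdc25b, Cdc25c, Wee1 and Pkmyt1. The 2 lower genes were Ccnd1 (log2 fold change -1.14) and Ccnd2 (-1.61). Of the 10, Ccne1 had the largest change (1.79), and Cdc25b, Cdc25c, Wee1 and Pkmyt1 act at entry into mitosis. No gene of these lists passed at an adjusted p under 0.05. The most abundant gene of the spindle and cytokinesis list was Hmgb2, a chromatin protein of dividing cells, with 1085, 1030.3 and 1707 CPM in the femur and 1575, 3007 and 2161 in the mandible (0.79 ± 0.28), and that of the kinetochore and checkpoint list was Bub3, with 70.5, 75.3 and 80.8 CPM against 86.9, 126 and 119 (0.52 ± 0.16). The leading genes of the other 3 lists, Stag1 of cohesin (0.06 ± 0.11), Rb1 (-0.21 ± 0.15) and the growth inhibitor Btg1 (-0.26 ± 0.23), had adjusted p-values of 0.865, 0.584 and 0.666.

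In the neutrophil-labelled and macrophage-labelled cells of cluster 5 the sites overlapped, and cells with rarer labels were not tested. In the neutrophil-labelled cells the summed level was 1152, 1268 and 1797 CPM in the femur and 792, 2255 and 1741 in the mandible, and edgeR called 0 of 47 genes (0.0603% of all genes), with 0 at an unadjusted p under 0.05 higher (1.91%) or lower (2.96%). DESeq2 called 0 (0.175% higher). The erythroid list in these cells was higher in the mandible, at 1328 to 2188 CPM against 70.9 to 310.2, as was the mature neutrophil list, at 9634 to 11635 against 8087 to 9208, and their part in these values was not tested. In the macrophage-labelled cells only 10 of the 47 genes passed the filter, and 0 were called by edgeR (0.0445% of all genes) or DESeq2 (0.0246% higher) or had an unadjusted p under 0.05.

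In cluster 4 the values leaned the other way and were small. With edgeR 0 of the 47 genes passed at an adjusted p under 0.05 (0.0245% of 12265 genes did), and DESeq2 called 0 (0.764% of all genes lower). At an unadjusted p under 0.05, 9 genes were lower in the mandible (6.81% of all genes were) and 1, Ube2c, was higher (6.21%). The 9 were Mki67, Tpx2, Kif4, Kif15, Cenpe, Anln, Prc1, Ndc80 and Spc25. For 10 genes each femur library lay above each mandible library (10.1% of all genes), and for Ube2c the reverse was found (5.90%). The median log2 fold change was -0.09 against 0.00 over all genes. It was -0.04 without femur replicate 1 and -0.16 without mandible replicate 1, and the number of genes with an unadjusted p under 0.05 was 2 and 19 in these fits (8.03% and 15.9% of all genes), 0 without mandible replicate 2 (7.17%) and 4 without mandible replicate 3 (8.63%).

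The 3 lowest estimates in cluster 4 were those of Top2a (log2 fold change -0.37 ± 0.17, SE; adjusted p 0.389), Mki67 (-0.37 ± 0.13, 0.315) and Kif4, a chromosome-bound motor (-0.35 ± 0.12, 0.315). Mki67 was at 769.8, 569 and 592 CPM in the femur and 541, 434 and 482 in the mandible, and Kif4 at 104, 75.3 and 75.9 against 72.2, 61.1 and 61.6. In each of these 3 genes femur replicate 1 was the highest library, and without it the log2 fold changes were -0.24, -0.27 and -0.23. The 3 highest estimates were those of Ube2c (0.27 ± 0.10, adjusted p 0.315), Cenpm (0.23 ± 0.13) and Cenpa (0.12 ± 0.09). Cenpm was at 15.3, 14.6 and 13.0 CPM in the femur and 13.1, 16.6 and 19.5 in the mandible, and Cenpa at 180.4, 161 and 162 against 182, 183 and 169, both with overlap. The share of cells called G2M was 56.8% to 64.1% in the femur and 54.9% to 60.8% in the mandible (exact permutation test, p = 0.5). Within the pairs of the same library number the summed level was 1.01 and 0.931 times the femur level. The mature neutrophil list in cluster 4 was at 2122 to 3324 CPM in the mandible and 1190.3 to 2653 in the femur, with overlap. Of the neutrophil precursor list, Elane was at 616 to 788 CPM in the femur and 994 to 1630 in the mandible. Prtn3 was at 507 to 673 CPM against 695 to 1310. Fcnb went the other way, at 1584 to 1758 CPM in the femur and 1098 to 1368 in the mandible. Elane, Prtn3 and Fcnb did not overlap between the sites, whereas Mpo, Ctsg and Ms4a3 of the same list did. The part of both lists in the site values of cluster 4 was not tested.

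Among the further genes, cluster 4 held 7 of 35 further kinetochore genes lower and 0 higher in the mandible at an unadjusted p under 0.05, where 6.81% of all genes were lower and 6.21% higher. Of 34 spindle and cytokinesis genes 5 were lower and 1 higher, and of 30 genes of the anaphase-promoting complex, cohesin and condensin 7 and 0. Of 21 genes of cell cycle transcription 6 were lower and 1 higher. In the list of cyclins, kinases and inhibitors, 3 of 20 tested genes were lower and 1 higher. None passed at an adjusted p under 0.05. Hjurp, the chaperone that loads Cenpa, was the most abundant of the kinetochore list, with 204, 165 and 181 CPM in the femur and 161, 144 and 147 in the mandible (-0.25 ± 0.10, adjusted p 0.348). Smc4 of condensin (-0.17 ± 0.12), Tfdp1, a partner of the E2F factors (-0.07 ± 0.11), and Ccnd3, cyclin D3 (0.15 ± 0.12), overlapped between the sites.

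In cluster 0 the estimates were mostly below 0, with wide spread. With edgeR, 0 of 47 genes passed at an adjusted p under 0.05 (0.0163% of 12285 genes did), and 0 had an unadjusted p under 0.05 in either direction (2.57% of all genes higher, 4.24% lower). DESeq2 called 0 (0.232% of all genes lower). The estimate was negative for 43 genes, with a median of -0.27 against 0.00 over all genes. Hmmr, a spindle protein that binds Tpx2, was at 19.2, 12.9 and 21.1 CPM in the femur and 7.32, 16.3 and 9.64 in the mandible (-0.63 ± 0.34, adjusted p 0.832). Mki67 was at 63.0, 42.5 and 67.2 CPM against 21.8, 50.6 and 39.6 (-0.58 ± 0.33), and Cenpe, the kinetochore motor, at 19.4, 11.7 and 20.2 against 6.83, 14.8 and 11.8 (-0.58 ± 0.33). The positive estimates above 10 CPM were those of Incenp (0.07 ± 0.22) and Ube2c (0.05 ± 0.62).

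Ube2c in cluster 0 shows the spread: it was at 22.2, 14.5 and 37.1 CPM in the femur and 6.43, 42.5 and 26.4 in the mandible. The share of cells called G2M was 7.29%, 2.84% and 4.22% in the femur and 1.61%, 3.01% and 1.51% in the mandible (exact permutation test, p = 0.2, adjusted over 9 clusters 0.6). Femur replicate 1 had the highest share and mandible replicate 1 the lowest level of the 47 genes. The median log2 fold change was 0.04 without mandible replicate 1, -0.03 without femur replicate 3, -0.45 without femur replicate 2 and -0.72 without mandible replicate 2, and in the last fit 14 genes had an unadjusted p under 0.05 (5.99% of all genes did). Of the alternatives run, only the fit on the 4 libraries that share a number, with that number as a block, called any gene, and its 5 were lower in the mandible (Ccnb2, Cenpe, Hmmr, Kif15 and Mki67; 2.01% of all genes were called lower by this fit). Within those pairs the summed level was 0.690 and 0.954 times the femur level.

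In clusters 1 to 3 many of the 47 genes were too low to test: 39, 27 and 23 passed the filter, and edgeR called 0 in each (0.0842%, 0.0416% and 0.0108% of all genes). The gene with the lowest adjusted p was Kif23 in cluster 1, named here after its values were seen. It was at 83.0, 103.6 and 91.2 CPM in the femur and 59.6, 41.5 and 47.1 in the mandible, without overlap (16.9% of all genes had each femur library above each mandible library). At an unadjusted p under 0.05, 1 gene of cluster 1 (Kif23) and 3 of cluster 2 were lower in the mandible (6.54% and 6.40% of all genes were) and 0 were in cluster 3. In cluster 1 DESeq2 called Kif23 (1.25% of all genes were called lower), with a log2 fold change of -0.77 ± 0.18 (SE) and an adjusted p of 0.0035, and edgeR gave -0.76 ± 0.15 and 0.0966. DESeq2 called 0 genes in clusters 2 and 3 (0.863% and 0.185% of all genes lower). The fit on the 4 libraries that share a number, with that number as a block, called 3, 6 and 2 genes lower in clusters 1 to 3. It called 5.36%, 5.25% and 2.44% of all genes lower there. In clusters 6, 7 and 8, where 47, 24 and 31 genes passed the filter, edgeR called 0 (0%, 0.0842% and 0% of all genes) and so did DESeq2 (0%, 0.138% and 0.00706% higher). At an unadjusted p under 0.05 these counts were 0, 1 lower (3.05%) and 1 higher (0.629%). Over all cells edgeR called 0 of 47 (0% of all genes), with 1 lower at an unadjusted p under 0.05 (4.68%), and DESeq2 called 0 (0.792% higher). There the median log2 fold change was -0.00, and the summed level was 1627 to 2691 CPM in the mandible and 1859 to 2474 in the femur.

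Whether the site effect differed between cell groups was tested on the difference itself with limma. Cluster 5 against cluster 0 gave 0 of 47 genes at an adjusted p under 0.05 and 40 at an unadjusted p under 0.05 (10.3% of all genes), with a median difference of 1.14 on the log2 scale and 46 positive. Cluster 5 against cluster 4 gave 0 and 9 (6.62%), with a median difference of 0.82. That count of 9 became 0 without femur replicate 1 or 2 or mandible replicate 2 or 3, 29 without femur replicate 3 (7.29% of all genes), 45 without mandible replicate 1 (15.4%) and 37 with the replicate number as a block (10.0%). The median ran from 0.53 without mandible replicate 2 to 1.18 without mandible replicate 1. Cluster 4 against cluster 0 gave 0 and 0 (6.57%), with a median of 0.30 and 43 genes positive. Its direction rested on single libraries: without mandible replicate 1 the median was -0.16 with 8 genes positive, without femur replicate 3 it was 0.08, without femur replicate 2 0.54, and without mandible replicate 2 0.72 with 46 positive. Between the monocyte-labelled and the neutrophil-labelled cells of cluster 5 the median difference was 1.18 and positive for all 47 genes, with 0 genes at an adjusted p under 0.05, 45 at an unadjusted p under 0.05 (10.1%) and a lowest adjusted p of 0.119. Between the monocyte-labelled cells of cluster 5 and the neutrophil-labelled cells of cluster 4 these values were 1.28, 0, 42 (12.2%) and 0.325. In that last comparison the count of 42 was 25 to 27 without femur replicate 1 or 2 or mandible replicate 2 or 3 (7.12% to 8.20% of all genes), and without mandible replicate 1 it was 46 (20.4%) and 1 gene was called (0.0377% of all genes). No other tool was run on these differences.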

How the data were processed

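Bone marrow cells were profiled by 10x 3′ single-cell RNA sequencing in 6 libraries. The authors deposited raw UMI counts from CellRanger on mm10 (7.0.1 in the methods, 7.1.0 in the matrix headers), and intron and strand settings were not given in the sources used here. Of the 47 genes, 10 overlap another gene of the matrices, 9 on the other strand (Ccna2, Kif20a, Kif4, Kif22, Cdca8, Cdc20, Ube2c, Nusap1 and Prc1) and 1, Anln, with the intronic transcript Gm48646 on its own strand, so their reads may not be separable. In Seurat, the authors kept cells by gene number and mitochondrial percent (deposited percentages reach 19.8), regressed mitochondrial content and the difference of the phase scores, integrated the libraries, clustered the cells and labelled them with SingleR. These steps chose the cells and do not alter the raw counts. A deposited table of the authors' own cluster comparisons, with fold changes and p-values, was not used.

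Counts were summed per library and cluster or label. Femur and mandible were compared with edgeR 4.0.16 (R 4.3.3; TMM, filterByExpr, quasi-likelihood test), with Benjamini-Hochberg adjustment over all genes tested, in clusters with at least 10 cells and labels with at least 20 cells in each library. The study itself tested single cells with a Wilcoxon test. DESeq2 1.42.0 was an alternative, and limma 3.58.1 tested differences of site effects between cell groups on log2 CPM (prior count 2). The edgeR script was tested on simulated data. Cells were thinned to 1000 UMIs for shares of cells with UMIs. UMI totals set the counting precision, and thinned shares cover counting error only. In 3 against 3 libraries an exact permutation test cannot go below 0.1.

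The 47 genes and the other lists were chosen with earlier results of these data known. Values in each library were given for the most abundant gene of each role in cluster 4 and for the 3 highest and lowest estimates among genes of at least 10 CPM in clusters 0, 4 and 5, and genes named after their values were seen are marked so or, for Ccna2, Kif11, Anln and Pttg1 in monocyte-labelled cells and for the G2M and S comparison, stated here. The replicate numbers in the titles did not pair the libraries: in 0 of 15 cell groups did all 3 pairs correlate above 0.1. For the 4 libraries whose names share the number 6 or 7, both pairs correlated above 0.1 in 12 of 15 cell groups, the monocyte-labelled cells among them. The labels do not say what these numbers mark, and they leave 2 libraries unpaired, so that block was an alternative. Its fit leaves very few degrees of freedom to estimate the spread, so its counts of calls are uncertain.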

Additional observations from a re-analysis of the deposited data

Results flagged for a closer look

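Barcodes that the authors had removed were not used in the comparisons, and the 47 genes were read in them as well. The 480 removed barcodes with 6000 or more genes had 3667 to 6431 CPM of the 47 genes over the 6 libraries, with a mean of 4710, which was 1.78 to 3.46 times the level over all kept cells of the same library. The 3835 removed barcodes with under 6000 genes had 458 to 1874 CPM, with a mean of 915. Both lie in data outside the comparisons, and neither was tested. Groups of 3 libraries are too small for the check on single libraries that stand apart.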

How the results depend on the processing

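Over all alternatives, 550 repeated values of comparisons stayed within the limits set, and 37 moved. For calls the value was the number of called genes, so 0 against 0 counted as unmoved whatever the direction of the estimates. Values that stayed could therefore hide a turn of sign, as in the medians of cluster 0 and of cluster 4 against cluster 0 given above. Of the repeated values of named genes, 402 stayed, 48 passed a threshold they had not passed and 24 changed sign. The cause was not tested in each case. The replicate block gave 10 called genes in the monocyte-labelled cells against 0 and changed no other count of calls. There DESeq2 called 37, no filter 46, the library number block 46, and leaving out each library 0 to 44, with the shares of all genes given above. With the library number block 5, 3, 6 and 2 genes were called lower in clusters 0 to 3 (2.01%, 5.36%, 5.25% and 2.44% of all genes were), 4 lower in the neutrophil-labelled cells of cluster 0 (1.64%) and 2 higher in those of cluster 4 (2.00%). DESeq2 called 1 gene lower in cluster 1 (1.25%), and fits with no filter called 1 each lower in clusters 1 and 2 (1.36% and 1.40%). Leaving out each library, 0 to 1 genes were called in the difference between monocyte-labelled cells and cluster 4 neutrophil-labelled cells (0.0377% of all genes without mandible replicate 1). The summed log2 difference was 0.11 in G2M-called cells of cluster 5 (0.75 in all cells) and 0.12 in those with the monocyte label (1.22), and -0.51 per cell in cluster 6 (-0.07). Thinned to 1000 UMIs, the share of cells with at least 2 UMIs differed between mandible and femur by -5.00 percentage points in cluster 0 and -4.83 in its neutrophil-labelled cells, -3.51, -1.80 and -0.69 in clusters 1 to 3, -0.43 in cluster 6, 0.33 in cluster 8, -1.63 over all cells, 11.6 in the monocyte-labelled and -1.56 in the macrophage-labelled cells. Unthinned, it was -11.5 in cluster 0 and in its neutrophil-labelled cells, -12.7, -6.33 and -6.99 in clusters 1 to 3, -12.5 in cluster 6, -7.38 over all cells, 3.13 in the monocyte-labelled and -11.2 in the macrophage-labelled cells. Thinned to 2000 UMIs it was -7.13, -4.61 and -1.19 in clusters 1 to 3, -6.92 in the macrophage-labelled cells and -15.9 in cluster 8, where the sign turned. With at least 1 UMI it was -7.75, -4.11 and -2.22 in clusters 1 to 3, and with at least 3 UMIs -1.29 and -0.32 in clusters 1 and 2. The sign also turned in cluster 6 at 2000 UMIs (0.15) and in cluster 8 unthinned (-7.66). In neutrophil-labelled cells of cluster 5 it went from -2.28 to 0.48 with at least 3 UMIs. Unthinned, cluster 4 went from 0.96 to -0.03 and its neutrophil-labelled cells from 1.57 to -0.005.

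Among named genes with estimates near 0, in cluster 4 Cks2 was at 0.095 with the library number block, 0.000801 in S or G2M cells, 0.012 in G2M cells and -0.11 to 0.10 without single libraries, and Birc5 at -0.017 to 0.12. In cluster 0, Incenp was at -0.087 in S or G2M cells and -0.11 to 0.25 without single libraries, and Ube2c at -0.22 with the replicate block, -0.31 with the library number block and -0.65 to 0.60. Pttg1 was at 0.074 in S or G2M cells and 0.17 in G2M cells of cluster 5, and at 0.28 in G2M cells and -0.17 to 0.023 without single libraries in the monocyte-labelled cells. Genes with large estimates in all monocyte-labelled cells (0.65 for Cks2, 1.23 for Top2a, 1.30 for Nusap1 and 1.29 for Prc1) also changed sign within a phase: G2M cells gave -0.048 for Cks2 and -0.038 for Top2a, and G1 cells -0.48 for Top2a, -0.41 for Nusap1 and -0.10 for Prc1. In simulated data with each gene drawn on its own, 3 of 100 genes changed 2-fold were recovered in cluster 8, 50 to 53 in clusters 1 to 3 and 31 in cluster 5.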
